A study of Mus musculus with 308 samples.

Results

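The kidneys of mice given dimethyl fumarate (DMF) together with salts of monoethyl fumarate (MEF) were compared with the kidneys of mice given the same dose of DMF alone, which shows the difference made by adding MEF salts to DMF. The comparison used the 16 kidney arrays whose titles name these groups, 8 of the combination and 8 of DMF, out of 308 arrays of 7 tissues in the series. It ran over every gene that a single-symbol probe set of the array names. The DMF group received DMF at 100 mg/kg (DMF100). The combination group received DMF at 100 mg/kg with the calcium, magnesium and zinc salts of MEF at 79.2 mg/kg, so both groups carried DMF. Further dosed kidney groups served for reference: vehicle (7 arrays), MEF salts alone at 79.2 mg/kg (7 arrays) and DMF at 179.2 mg/kg (DMF179.2, 8 arrays), the last with the same total mass of drug as the combination. A further kidney group, Nav (8 arrays), carries a name that no label spells out. The series' design text names the other 6 tissues and not the kidney, so the doses of the kidney groups rest on the titles. All dosed mice were of the strain C57BL/6, were dosed daily for 10 days in 0.8% hydroxypropyl methylcellulose and gave tissue 12 h after the last dose. Groups were read from the sample titles, because another label field gives DMF100 and the combination the same text. The number in a title runs from 1 to 47 over the series, belongs to 1 treatment and was taken as the mouse. Age and sex are not given in the sources used here.

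DMF and MEF are esters of fumarate, with methyl groups on both acid ends in DMF and an ethyl group on a single end in MEF. Such esters react with cysteines of KEAP1, the protein that marks the transcription factor NRF2 for breakdown, and NRF2 then switches on genes of glutathione use, quinone reduction and heme breakdown. The kidney is a tissue of strong NRF2 responses and of a strong daily clock. In that clock BMAL1 (gene Arntl) pairs with CLOCK or NPAS2 and drives the genes of their own repressors, the PER and CRY proteins, and of the output factors DBP and TEF.

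Values are the deposited log2 expression values. Where 3 values are given for a group they are its lowest, median and highest array. Differences are combination minus DMF100 on the log2 scale with their standard error, unless another pair is named, and a call means that limma's p, adjusted over all genes tested by the method of Benjamini and Hochberg, was under 0.05. Tubule markers were high in all 46 kidney arrays, with Miox between 13.02 and 13.27, Kap between 12.19 and 13.53 and Umod between 12.15 and 13.19, while the collecting duct marker Aqp2 read 6.20 to 7.38 and the podocyte marker Nphs1 6.03 to 7.05. The adrenal cortex marker Cyp11b1 sat at the lowest value of the table, 2.14, in every kidney array, and Star, another adrenal marker, read 5.71 to 6.11. Adipoq, the adipocyte marker, ranged from 5.90 to 11.03 over the kidney arrays, and the log2 of the summed signal of the list of adrenal and fat genes ranged from 12.46 to 13.64 in DMF100 and from 12.55 to 13.81 in the combination. The mean signal of the 18 hybridisation control probe sets was 11.76 ± 0.09 (SD, n = 8) in DMF100 and 11.88 ± 0.10 (SD, n = 8) in the combination, a difference of 0.12 (two-sided exact permutation test, p = 0.0221, 0.132 after adjustment over 6 technical measures). A fit with this signal as a covariate is given beside the counts, as are counts without combination array 39 or DMF100 array 12, the arrays whose removal lowered the calls most.

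Adding MEF salts to DMF was followed by many small differences and few large ones. Of 10689 genes tested, 1537 were called (14.4%): 964 rose (9.02%) and 573 fell (5.36%). By at least 1.5-fold, 40 of them differed, 22 upward and 18 downward, and the median size of a called difference was 0.21 on the log2 scale. In 71 genes (0.664%) all combination arrays lay above all DMF100 arrays, and in 34 (0.318%) all lay below. Without combination array 39 the count was 872, without DMF100 array 12 it was 866, and with the hybridisation control signal as a covariate it was 708, of which 624 were among the 1537. When each array was centred on its own median the calls numbered 594 upward and 642 downward, so the surplus of rises depends on the scaling.

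The genes that rose most were led by Angptl4, a secreted inhibitor of lipoprotein lipase that is known to rise on fasting. Angptl4 read 6.88, 7.81 and 8.86 in the DMF100 arrays and 7.54, 9.24 and 9.58 in the combination arrays, a difference of 1.33 ± 0.38 (adjusted p = 0.0151), or 2.51-fold. Of the 8 combination arrays 6 lay above the highest DMF100 array, 1 lay just below it, and combination array 39, at 7.54, lay inside the DMF100 range. Klf11, a Krüppel-like transcription factor, read 6.91, 7.66 and 8.48 in the DMF100 arrays and 7.99, 8.80 and 9.05 in the combination arrays and rose by 1.01 ± 0.22 (adjusted p = 0.00182). Bcl6, a transcriptional repressor, rose by 0.81 ± 0.19 (adjusted p = 0.00482), from 8.89, 9.38 and 10.05 in the DMF100 arrays and 9.66, 10.19 and 10.52 in the combination arrays, and 5 of the 8 combination arrays lay above all DMF100 arrays. Means in vehicle, DMF100 and the combination were 8.59, 7.70 and 9.03 for Angptl4, 8.80, 7.67 and 8.68 for Klf11, and 9.91, 9.32 and 10.13 for Bcl6. The combination was not called against vehicle for Angptl4, Klf11 or Bcl6 (limma, adjusted p = 0.407, 0.73 and 0.424).

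Among the genes that fell most, Rbm3, a cold-inducible RNA-binding protein, read 6.91, 7.47 and 7.67 in the DMF100 arrays and 6.18, 6.39 and 6.85 in the combination arrays. The groups did not overlap, and Rbm3 fell by 1.98-fold, a difference of -0.99 ± 0.13 (adjusted p = 1.15e-05), the smallest adjusted p of the genes named here. Slc10a2, the sodium-dependent bile acid transporter that takes bile acids back up in ileum and kidney tubule, read 8.72, 8.90 and 9.63 in the DMF100 arrays and 7.67, 8.26 and 8.59 in the combination arrays, again without overlap, and differed by -0.92 ± 0.17 (adjusted p = 0.000577). Bhmt, which remethylates homocysteine from betaine, read 9.76, 10.04 and 10.50 in the DMF100 arrays and 8.52, 9.22 and 9.70 in the combination arrays and differed by -0.87 ± 0.18 (adjusted p = 0.00167). Every combination array of Bhmt lay below every DMF100 array. Cebpd, a C/EBP transcription factor of acute responses, read 6.84, 7.41 and 7.75 in the DMF100 arrays and 6.08, 6.23 and 7.06 in the combination arrays and differed by -1.08 ± 0.25 (adjusted p = 0.00389), with combination array 37 reaching into the DMF100 range. Flvcr1, a heme exporter, differed by -0.66 ± 0.11 (adjusted p = 0.000136) with no overlap, from 9.48, 9.63 and 10.01 in the DMF100 arrays and 8.66, 9.05 and 9.26 in the combination arrays.

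**Figure D1:**
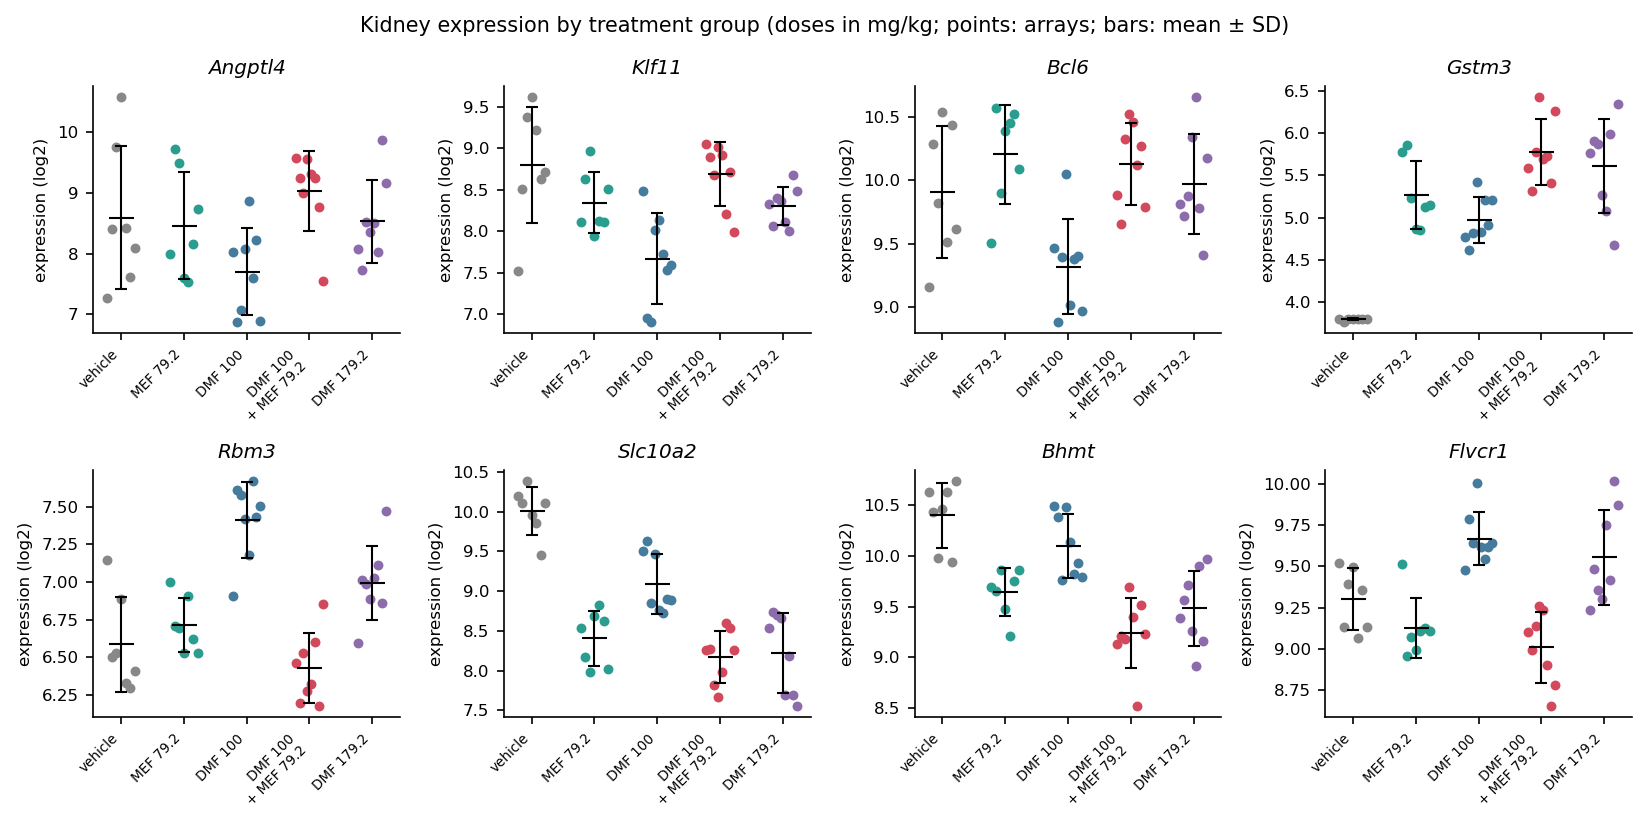
Log2 expression of 8 genes with large differences in kidney, by treatment group on the x axis (doses in mg/kg); each point is an array, and bars give the mean and SD. Rbm3, Slc10a2, Bhmt and Flvcr1 show no overlap between DMF 100 and the combination, while Angptl4 overlaps, with combination array 39 at 7.54.

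The other genes among the 15 largest rises included Dusp4, a phosphatase of MAP kinases, which read 4.28, 4.72 and 5.87 in the DMF100 arrays and 4.95, 5.61 and 5.71 in the combination arrays and rose by 0.67 ± 0.17 (adjusted p = 0.0084). Uchl1, a ubiquitin hydrolase, read 5.58, 6.31 and 6.77 in the DMF100 arrays and 6.72, 6.87 and 7.38 in the combination arrays and rose by 0.65 ± 0.12 (adjusted p = 0.000506). Wnt9b, a secreted signal of the collecting duct lineage, read 5.47, 5.94 and 6.40 in the DMF100 arrays and 6.57, 6.73 and 7.0 in the combination arrays without overlap and rose by 0.76 ± 0.24 (adjusted p = 0.0254), and its call ended without combination array 37 or DMF100 array 10 or 12. Edar, a receptor of the TNF family, rose by 0.67 ± 0.19 (adjusted p = 0.0183). Igfbp2, which binds insulin-like growth factors, rose by 0.72 ± 0.25 (adjusted p = 0.0415), a call that ended in 9 of the 16 fits that each left out 1 array. Against vehicle, the combination was called for Uchl1 and Igfbp2 (limma, adjusted p = 0.000573 and 0.013). It was not called against vehicle for Dusp4, Wnt9b or Edar (limma, adjusted p = 0.72, 0.862 and 0.223).

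On the lower side, Loxl4, a lysyl oxidase of the matrix, read 6.84, 7.03 and 7.52 in the DMF100 arrays and 6.16, 6.51 and 6.72 in the combination arrays, and all combination arrays lay below all DMF100 arrays. It differed by -0.61 ± 0.15 (adjusted p = 0.0057). Smc6, of a complex for chromosome maintenance, read 6.48, 6.81 and 7.58 in the DMF100 arrays and 5.71, 6.46 and 6.72 in the combination arrays and differed by -0.65 ± 0.14 (adjusted p = 0.00196). Foxq1, a forkhead transcription factor, differed by -0.62 ± 0.17 (adjusted p = 0.0126), Bex1 by -0.74 ± 0.16 (adjusted p = 0.00179), the protocadherin Pcdh18 by -0.63 ± 0.15 (adjusted p = 0.00394) and Gm13648 by -0.65 ± 0.14 (adjusted p = 0.00159). Smcp, a sperm mitochondrial protein, differed by -0.63 ± 0.21 (adjusted p = 0.0384), and its call ended in 8 of the 16 fits that each left out 1 array. The other 6 genes of this paragraph were called in all 16.

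Genes of the circadian clock moved in both directions. Of 16 clock genes tested, 4 rose and 4 fell (50%, against 14.4% of all genes). Those that rose were the output factors Dbp and Tef, the repressor Per3 and Bhlhe40, a repressor of clock targets, and those that fell were Arntl, Clock and Npas2 of the activating arm, and Cry1. Dbp read 4.69, 5.76 and 6.68 in the DMF100 arrays and 5.90, 6.73 and 8.04 in the combination arrays, a difference of 1.07 ± 0.29 (adjusted p = 0.0123). The groups overlapped, and combination array 39 gave the highest Dbp value, 8.04. Per3 read 7.47, 8.28 and 8.88 in the DMF100 arrays and 8.38, 8.83 and 9.44 in the combination arrays and rose by 0.60 ± 0.17 (adjusted p = 0.0168). Tef rose by 0.35 ± 0.09 (adjusted p = 0.00752) and Bhlhe40 by 0.35 ± 0.08 (adjusted p = 0.00565), and only the Bhlhe40 arrays, 9.94, 10.28 and 10.46 in the DMF100 arrays and 10.47, 10.59 and 10.84 in the combination arrays, did not overlap.

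On the falling side, Npas2 read 8.25, 8.46 and 9.27 in the DMF100 arrays and 6.74, 7.88 and 8.12 in the combination arrays and differed by -0.86 ± 0.17 (adjusted p = 0.000961). The groups of Npas2 did not overlap, and array 39 was again the extreme, at 6.74. Cry1 read 6.32, 6.80 and 7.17 in the DMF100 arrays and 5.96, 6.11 and 6.44 in the combination arrays and differed by -0.65 ± 0.15 (adjusted p = 0.00426). Arntl read 7.95, 8.31 and 8.60 in the DMF100 arrays and 7.50, 7.86 and 8.18 in the combination arrays and Clock read 9.51, 9.71 and 9.90 in the DMF100 arrays and 9.17, 9.60 and 9.75 in the combination arrays, with differences of -0.44 ± 0.12 (adjusted p = 0.0121) and -0.22 ± 0.07 (adjusted p = 0.0312). In Clock 3 of the 8 combination arrays lay below all DMF100 arrays and 5 lay inside the DMF100 range. Nfil3 (-0.44 ± 0.16, adjusted p = 0.0529) and Nr1d2 (0.27 ± 0.10, adjusted p = 0.053) lay just short of the threshold, and Per2 (-0.02 ± 0.19, adjusted p = 0.963) and Rora (-0.02 ± 0.05, adjusted p = 0.818) were near 0. Without combination array 39, 3 clock genes rose and 3 fell, as without DMF100 array 10.

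**Figure D2:**
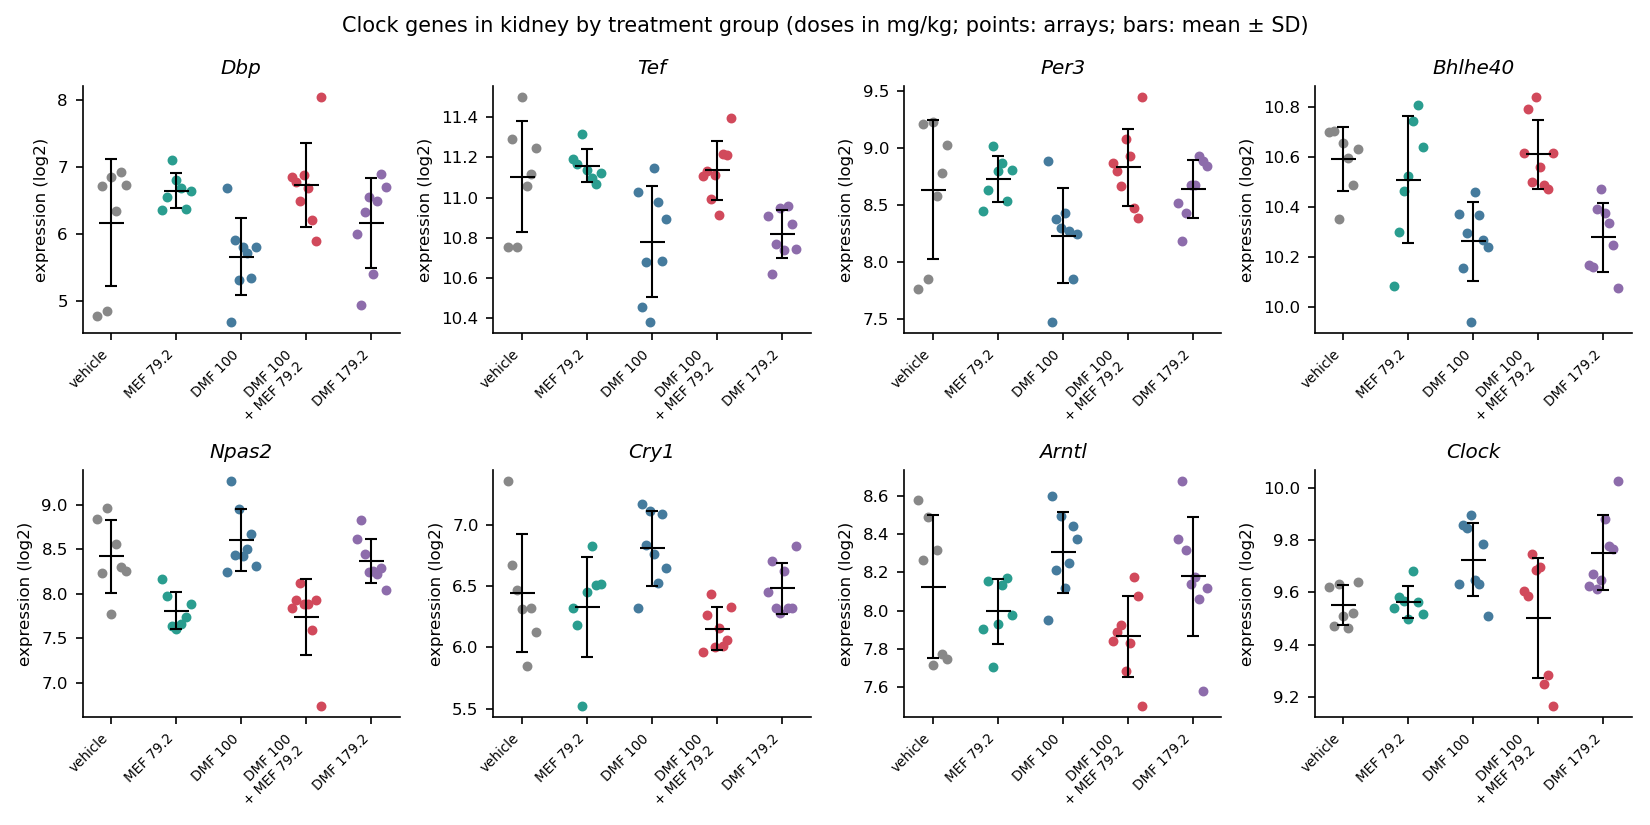
Log2 expression of the 8 called clock genes in kidney, by treatment group on the x axis (doses in mg/kg); each point is an array, and bars give the mean and SD. The combination lies above DMF 100 in the upper 4 genes and below it in the lower 4, and the vehicle arrays of Dbp run from 4.77 to 6.93.

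The vehicle, MEF and Nav arrays put these clock values in context. Mean Dbp was 6.17 ± 0.94 (SD, n = 7) in vehicle, 6.64 ± 0.26 (SD, n = 7) with MEF salts alone, 5.66 ± 0.57 (SD, n = 8) with DMF100 and 6.73 ± 0.63 (SD, n = 8) with the combination. DMF100 against vehicle, which shares the DMF100 arrays and called 8.3% of all genes, differed by -0.32 ± 0.09 for Tef (adjusted p = 0.0227) and by -0.33 ± 0.09 for Bhlhe40 (adjusted p = 0.0128). Mean Tef in the combination, 11.13, lay near the vehicle mean of 11.10, and mean Bhlhe40, 10.61, near that of 10.59. MEF salts without DMF called 1 clock gene up, Per1 (0.95 ± 0.32, adjusted p = 0.0371), and 1 down, Npas2 (-0.61 ± 0.18, adjusted p = 0.0187). No clock gene passed the test of the difference between MEF salts with and without DMF. Nav against vehicle, which called 49.5% of all genes, called Dbp up (1.41 ± 0.30, adjusted p = 0.000177). It called Npas2 (-0.95 ± 0.17, adjusted p = 2.33e-05) and Cry1 (-0.55 ± 0.16, adjusted p = 0.00412) down. In Nav mean Tef was 11.4 and mean Bhlhe40 10.69. The source of this likeness was not tested.

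Promoter sequences of 3 called clock genes are shown, those whose windows hold a motif of the clock's own factors. The motifs searched on both strands were the E-box CACGTG, the site of the BMAL1 pairs, and the D-box TTANGTAA, the site of DBP and TEF, which do not overlap each other here. Windows run from 250 bases before a RefSeq start to 50 after, from assembly GRCm38.p6. Of the 16 clock genes tested, 14 matched a window, 3 of them held an E-box (Cry1, Per1 and Tef; 21.4%) and 1 a D-box (Per3; 7.14%), against 8.09% and 2.72% of all 27025 genes with a window. The stretches below are 5′ to 3′ on the gene's strand, with the motif in capitals.
Per3 (chr4:151044786-151044885, minus strand), D-box: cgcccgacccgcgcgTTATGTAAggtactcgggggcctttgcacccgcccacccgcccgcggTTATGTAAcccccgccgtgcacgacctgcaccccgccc
Tef (chr15:81802496-81802595, plus strand), E-box: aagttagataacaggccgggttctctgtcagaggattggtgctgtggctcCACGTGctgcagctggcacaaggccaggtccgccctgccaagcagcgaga
Cry1 (chr10:85185065-85185164, minus strand), E-box: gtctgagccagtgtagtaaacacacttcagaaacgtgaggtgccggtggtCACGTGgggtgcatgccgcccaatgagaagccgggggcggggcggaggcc
Per3 holds its D-box at 205 and 158 bases before the start, Tef an E-box at 127 bases and Cry1 an E-box at 60 bases. Tef rose and Cry1 fell, and both windows hold the E-box. Regulation through these motifs was not tested. The windows of Npas2, Arntl and Clock hold neither motif.

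Genes known to rise on fasting and on FOXO, PPAR or glucocorticoid signals were grouped in a list written after the values were seen, so its counts are a description. Of its 18 members tested, 6 rose (Angptl4, Depp1, Bcl6, Gadd45b, Plin5 and Plin2) and 2 fell (Cebpd and Pck1), 44.4% against 14.4% of all genes. Depp1, a FOXO target, read 6.15, 7.38 and 8.35 in the DMF100 arrays and 7.24, 8.54 and 9.33 in the combination arrays and rose by 1.14 ± 0.35 (adjusted p = 0.0249). The call ended without DMF100 array 10. Mean Depp1 in DMF100 was 7.27 against 8.87 in vehicle, and 8.40 in the combination. Gadd45b, a stress gene, rose by 0.59 ± 0.12 (adjusted p = 0.00142), and Plin5, a lipid droplet protein of oxidative tissue, by 0.59 ± 0.16 (adjusted p = 0.0132). Pck1, the gluconeogenic enzyme, read 5.30, 5.40 and 5.64 in the DMF100 arrays and 4.86, 5.09 and 5.32 in the combination arrays and fell by 0.32 ± 0.08 (adjusted p = 0.0106), against the direction of Angptl4. Pdk4 (0.16 ± 0.17, adjusted p = 0.537) and Txnip (0.17 ± 0.08, adjusted p = 0.145) were not called.

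Fatty acid oxidation genes rose in 5 of 20 cases and fell in none (25%, list median 0.05 against 0.02 over all genes, of which 9.02% rose). Besides Angptl4 and Plin2 these were Cpt2, the inner carnitine palmitoyltransferase (0.23 ± 0.06, adjusted p = 0.0127), Acadvl, the very long chain acyl-CoA dehydrogenase (0.12 ± 0.04, adjusted p = 0.0228), and Crat. Without any 1 of combination arrays 37 and 39 and DMF100 arrays 9 and 10, only 2 of the list were called. Of 23 lipid synthesis genes, none rose and 2 fell, where 14.4% of all genes were called and 5.36% fell. These were Msmo1 (-0.45 ± 0.14, adjusted p = 0.027) and Hmgcs1 (-0.19 ± 0.06, adjusted p = 0.0284), both of the sterol pathway. Their calls ended in 6 and 4 of the 16 fits that each left out 1 array. Cyp4a31, a fatty acid hydroxylase, differed by -0.63 ± 0.14 (adjusted p = 0.00308).

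NRF2 target genes rose further when MEF salts were added, in part of the list. Of 46 tested, 10 rose and none fell (21.7%, list median 0.08, where 9.02% of all genes rose). These 10 were Ephx1, Gstm1, Gstm3, Gstm4, Blvrb, Hmox1, Taldo1, Cbr3, Gclm and Ugt2b5. The glutathione transferase Gstm3 rose most of the calls on this list: it read 4.62, 4.87 and 5.42 in the DMF100 arrays and 5.32, 5.71 and 6.43 in the combination arrays and rose by 0.81 ± 0.17 (adjusted p = 0.00211). Ugt2b5, a glucuronosyltransferase, rose by 0.77 ± 0.26 (adjusted p = 0.0413), but its call ended in 11 of the 16 fits that each left out 1 array, and combination array 35 alone reached 7.46. Cbr3, a carbonyl reductase, read 7.75, 8.29 and 8.65 in the DMF100 arrays and 8.35, 8.75 and 9.10 in the combination arrays and rose by 0.45 ± 0.13 (adjusted p = 0.0152). Ephx1, the microsomal epoxide hydrolase, rose by 0.37 ± 0.07 (adjusted p = 0.000874) and Gstm4 by 0.38 ± 0.08 (adjusted p = 0.00178). Gstm1 read 12.41, 12.55 and 12.63 in the DMF100 arrays and 12.61, 12.69 and 12.89 in the combination arrays and rose by 0.17 ± 0.03 (adjusted p = 0.000961).

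Several standard NRF2 targets did not pass the test. Nqo1, the quinone reductase, read 10.49, 10.76 and 10.92 in the DMF100 arrays and 10.61, 10.87 and 11.21 in the combination arrays, and the difference was 0.15 ± 0.08 (adjusted p = 0.212, 95% confidence interval -0.02 to 0.31). Aldh3a1 differed by 0.96 ± 0.37 (adjusted p = 0.074), a large value with a wide spread, since its SD was 1.14 in DMF100 and 0.94 in the combination. Srxn1 (0.11 ± 0.05, adjusted p = 0.0968), Txnrd1 (0.06 ± 0.03, adjusted p = 0.125) and Gclc (0.13 ± 0.15, adjusted p = 0.571) were not called either. Against vehicle, DMF100 alone raised 28 of these 46 genes (4.69% of all genes rose) and MEF salts alone 24 (9.09%), with Nqo1 at a mean of 9.91 in vehicle, 10.80 with MEF salts, 10.73 with DMF100 and 10.87 with the combination.

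Gclm, the modifier subunit of the enzyme that limits glutathione synthesis, rose by 0.19 ± 0.06 (adjusted p = 0.0235), and its call ended without any 1 of combination arrays 38 and 39 and DMF100 arrays 10 and 12. Its promoter is printed as the window, among the 9 matched NRF2 targets that rose, that holds the core letters of the antioxidant response element.
Gclm (chr3:122245373-122245472, plus strand), TGACNNNGC read on the other strand, in capitals: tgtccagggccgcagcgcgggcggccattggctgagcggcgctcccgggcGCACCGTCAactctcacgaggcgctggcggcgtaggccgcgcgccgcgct
The match lies 134 bases before the start. Of 38 matched genes on the list 11 held such a match (28.9%), against 14% of all genes, and of those 11 Gclm alone was called here.

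Among the 20 glutathione genes tested, 5 rose and none fell (25%, against 9.02% of all genes). They were Gclm, Ggt5, a glutamyltransferase (0.27 ± 0.05, adjusted p = 0.00129), Hagh of the glyoxalase pair (0.11 ± 0.03, adjusted p = 0.0232), glutaredoxin Glrx (0.15 ± 0.05, adjusted p = 0.0322) and Gpx7. Under the fits that left out an array or changed a setting, this count ran from 1 to 6. The Gsto1 transferase, called at 0.16 ± 0.05 (adjusted p = 0.0319), turned to -0.05 when all its probe sets were averaged.

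Of 16 genes of heme and iron handling tested, 5 rose and 1 fell (37.5%, against 14.4% of all genes). Hmox1, which opens the heme ring, read 8.43, 8.65 and 8.78 in the DMF100 arrays and 8.80, 9.0 and 9.22 in the combination arrays, with no overlap, and rose by 0.36 ± 0.07 (adjusted p = 0.00118). Blvrb, a biliverdin reductase, read 8.65, 8.77 and 8.93 in the DMF100 arrays and 8.97, 9.09 and 9.36 in the combination arrays, also with no overlap, and rose by 0.36 ± 0.07 (adjusted p = 0.00117). Alas1, the first enzyme of heme synthesis, rose by 0.45 ± 0.12 (adjusted p = 0.0111), the heme transporter Slc48a1 by 0.15 ± 0.04 (adjusted p = 0.0079) and the last enzyme of the path, Fech, by 0.10 ± 0.03 (adjusted p = 0.0263). Flvcr1, the exporter, was the member that fell. The ferritin chains Fth1 (0.03 ± 0.04, adjusted p = 0.686) and Ftl1 (0.01 ± 0.03, adjusted p = 0.877) and the iron exporter Slc40a1 (0.07 ± 0.08, adjusted p = 0.589) were not called.

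MEF was given as metal salts. Of 20 zinc genes, 3 rose and 1 fell (20%, against 14.4% of all genes). The zinc importer Slc39a5 read 8.0, 8.34 and 8.44 in the DMF100 arrays and 8.19, 8.56 and 9.04 in the combination arrays and rose by 0.32 ± 0.08 (adjusted p = 0.0049), Slc39a7 rose by 0.15 ± 0.04 (adjusted p = 0.0236) and Slc39a10 fell by 0.18 ± 0.05 (adjusted p = 0.0175). Metallothionein Mt1, a zinc-induced gene, rose by 0.18 ± 0.06 (adjusted p = 0.0451), a call that ended in 10 of the 16 fits without 1 array. Without DMF100 array 10 or 12, 1 zinc gene rose. The zinc exporter Slc30a1, also zinc-induced, differed by -0.04 ± 0.05 (adjusted p = 0.619). Of 25 calcium and magnesium genes 5 were called (20%): 2 rose, the channel kinase Trpm7 (0.18 ± 0.05, adjusted p = 0.0127) and the phosphate carrier Slc34a3 (0.17 ± 0.05, adjusted p = 0.034), and 3 fell, the calcium buffer Calb1 (-0.17 ± 0.05, adjusted p = 0.0234), Umod and Egf. Umod and Egf are also on the loop of Henle list below. No gene of the calcium and magnesium list fell without any 1 of combination arrays 37, 38 and 39 and DMF100 arrays 10 and 12. The same held with array weights, with the 2 groups fitted alone and with the hybridisation control covariate. Another probe set of Trpm7 pointed the other way. The magnesium channel Trpm6 differed by 0.12 ± 0.13 (adjusted p = 0.539).

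By nephron segment, 1 of 33 proximal tubule genes rose and 3 fell (12.1%, near the 14.4% of all genes). Besides Slc10a2 and Pck1 the amino acid transporter Slc6a20b fell, from 10.30, 10.41 and 10.66 in the DMF100 arrays and 9.98, 10.25 and 10.36 in the combination arrays, by 0.24 ± 0.06 (adjusted p = 0.00516), and the organic anion transporter Slc22a6 rose by 0.13 ± 0.04 (adjusted p = 0.0446), although another probe set of it pointed the other way. In the loop of Henle 3 of 10 genes fell and none rose (30%, where 5.36% of all genes fell): uromodulin Umod (-0.23 ± 0.08, adjusted p = 0.0343), the potassium channel Kcnj1 (-0.14 ± 0.04, adjusted p = 0.0249) and Egf (-0.11 ± 0.04, adjusted p = 0.0433). None of these 3 calls was made without combination array 38 or 39, without DMF100 array 10 or 12, or with array weights. In the distal tubule and collecting duct 2 of 20 fell (10%, where 5.36% of all genes fell). These 2 were Calb1 and Foxi1, the transcription factor of intercalated cells (-0.54 ± 0.17, adjusted p = 0.0293). The calls of Calb1 and Foxi1 ended in 5 and 4 of the 16 fits that each left out 1 array. Bulk arrays cannot tell fewer cells of a type from less RNA per cell.

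The cell cycle genes that passed the filter were higher throughout. All 20 tested had a positive difference, 12 rose and none fell (60%, list median 0.31, where 9.02% of all genes rose). The replication helicase subunit Mcm7 read 7.02, 7.24 and 7.33 in the DMF100 arrays and 7.39, 7.55 and 7.79 in the combination arrays, with no overlap, and rose by 0.34 ± 0.05 (adjusted p = 0.000106). Gins2, of the same helicase complex, read 4.76, 5.45 and 5.54 in the DMF100 arrays and 5.73, 5.83 and 6.10 in the combination arrays, again without overlap, and rose by 0.52 ± 0.10 (adjusted p = 0.000572). Mcm2 (0.37 ± 0.10), Mcm4 (0.17 ± 0.04) and Mcm6 (0.32 ± 0.09) rose as well, with adjusted p between 0.00538 and 0.0148. The mitotic genes Birc5 (0.65 ± 0.19, adjusted p = 0.0177), Cdk1 (0.42 ± 0.13, adjusted p = 0.0218) and, outside the list, Prc1 (0.65 ± 0.20, adjusted p = 0.0265) rose. The cyclin-dependent kinase inhibitor Cdkn1a, which holds the cycle back, rose too (0.43 ± 0.13, adjusted p = 0.0279). Mki67 (0.40 ± 0.19, adjusted p = 0.136) and Tyms (0.08 ± 0.05, adjusted p = 0.309) were not called. The count fell from 12 to 7 when the 2 groups were fitted alone, and to 8 without combination array 39 or with the hybridisation control covariate. With no filter 33 genes of the list were tested, 10 rose and the median was 0.19. With the filter at the 70th percentile 8 were tested, 6 rose and the median was 0.167. In the Nav group against vehicle the list's median was 0.11.

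Markers of other cells were set beside these results. Of the urothelial genes, a list written after the values were seen, the 17 that passed the filter were all higher, with a median of 0.35. That filter could be met by the combination arrays alone. Of these, 4 rose (23.5%, where 9.02% of all genes rose). The 4 were the cornified envelope gene Sprr2a1 (0.77 ± 0.21, adjusted p = 0.0131), the uroplakins Upk1b (0.62 ± 0.19, adjusted p = 0.023) and Upk3b (0.55 ± 0.17, adjusted p = 0.0222), and Krt5 (0.28 ± 0.09, adjusted p = 0.0327). The log2 of the list's summed signal ran from 11.62 to 12.25 in DMF100 and from 12.04 to 12.60 in the combination. Only 1 member of the list was called without any 1 of combination arrays 37 and 39 and DMF100 array 10, and none with the hybridisation control covariate. With no filter 20 genes of the list were tested, 3 rose and the median was 0.26. With the filter at the 70th percentile 7 were tested, 1 rose and the median was 0.36. In the Nav group against vehicle the list's median was 0.19. Whether the share of urothelium in the samples took part in other results was not tested. Of 15 endothelial and stromal genes 4 rose (26.7%, where 9.02% of all genes rose), Pecam1 (0.26 ± 0.07, adjusted p = 0.0163), Egfl7, Tie1 and the collagen gene Col1a1 (0.39 ± 0.13, adjusted p = 0.0423), and none of the list was called without combination array 39, without DMF100 array 10 or with the hybridisation control covariate. The log2 of that list's summed signal ran from 13.52 to 13.65 in DMF100 and from 13.64 to 13.74 in the combination.

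Immune genes showed few differences. The leukocyte antigen Ptprc read 6.06, 6.27 and 6.71 in the DMF100 arrays and 5.58, 5.83 and 6.30 in the combination arrays and fell by 0.53 ± 0.15 (adjusted p = 0.0127). Ptprc was the only call among 18 leukocyte genes (5.56%, against 14.4% of all genes). Cd3e (0.02 ± 0.13) and Cd68 (0.21 ± 0.10) were not called, and the log2 of the list's summed signal was 10.94 to 11.40 in DMF100 and 11.05 to 11.27 in the combination. Among 24 interferon-induced genes 1 fell, the GTPase Iigp1 (-0.55 ± 0.15, adjusted p = 0.0152), and none rose, where 5.36% of all genes fell. Against vehicle, MEF salts without DMF lowered 11 of the same 24 (5.29% of all genes fell) and DMF100 lowered 7 (3.61%). Usp18, an interferon-induced protease, stood at a mean of 6.78 in vehicle, 6.22 with MEF salts, 6.30 with DMF100 and 6.23 with the combination. Of 14 injury genes 2 rose, a share near the 14.4% of all genes that were called. These were the lipocalin Lcn2 (1.14 ± 0.37, adjusted p = 0.032) and the keratin Krt18 (0.26 ± 0.08, adjusted p = 0.0233). Lcn2 read 6.22, 6.52 and 7.06 in the DMF100 arrays and 6.98, 7.37 and 10.18 in the combination arrays, the highest value being that of combination array 35, and its call ended without that array, or without DMF100 array 10 or 12.

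Heat shock genes fell in 3 of 15 cases and rose in none (20%, where 14.4% of all genes were called and 5.36% fell). The 3 were the cochaperones Dnajb4 (-0.27 ± 0.07, adjusted p = 0.00885) and Dnaja1 (-0.19 ± 0.06, adjusted p = 0.0433) and the constitutive chaperone Hspa8 (-0.19 ± 0.06, adjusted p = 0.0352). None of the list was called when the 2 groups were fitted alone or on the mean of each gene's probe sets. Of 24 genes of endoplasmic reticulum stress and ATF4 signalling 5 rose and none fell (20.8%, where 14.4% of all genes were called and 9.02% rose). Herpud1, of protein breakdown at that membrane, read 10.42, 10.90 and 11.04 in the DMF100 arrays and 11.06, 11.30 and 11.44 in the combination arrays and rose by 0.43 ± 0.10 (adjusted p = 0.00475), with no overlap. Mean Herpud1 was 11.18 in vehicle, 10.86 in DMF100 and 11.29 in the combination. Ddit3, the transcription factor CHOP, rose by 0.31 ± 0.08 (adjusted p = 0.00603), Sesn2 by 0.25 ± 0.06 (adjusted p = 0.00735) and the serine synthesis enzymes Psat1 by 0.34 ± 0.09 (adjusted p = 0.01) and Phgdh by 0.27 ± 0.09 (adjusted p = 0.0357). The chaperone Hspa5 of the same compartment was not called (-0.18 ± 0.10, adjusted p = 0.195), nor was Atf4 (-0.13 ± 0.05, adjusted p = 0.0839). Of 32 respiratory chain genes 1 was called (3.12%), of 27 ribosomal protein genes 3 (11.1%) and of 30 proteasome genes 3 (10%), against 14.4% of all genes.

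Of 11 genes that supply NADPH, Taldo1 of the pentose phosphate pathway (0.17 ± 0.04, adjusted p = 0.00538) and H6pd (0.17 ± 0.04, adjusted p = 0.0094) rose (18.2%, against 14.4% of all genes). Of 16 genes of fumarate metabolism and transport 1 fell (5.36% of all genes fell). This was the monocarboxylate transporter Slc16a1 (-0.32 ± 0.09, adjusted p = 0.0146), and its call ended without combination array 39 or DMF100 array 12. Among 19 immediate early genes Btg2, an inhibitor of proliferation, rose (0.30 ± 0.08, adjusted p = 0.0135) and Ier5 fell (-0.23 ± 0.08, adjusted p = 0.0368), where 14.4% of all genes were called. Of 13 glucocorticoid targets, Cdkn1a and Lcn2 rose (15.4%, near the 14.4% of all genes that were called). Of 10 glomerular genes Pdgfrb, a receptor of mesangial cells and pericytes, rose (0.24 ± 0.06, adjusted p = 0.0057), where 9.02% of all genes rose. Ephx1 was the only call of 25 oxidation enzymes (4%) and Ugt2b5 of 15 conjugating ones (6.67%), against 14.4% of all genes. By limma no call was made among 12 efflux transporters (differences of -0.24 to 0.14), 12 genes of antigen presentation (-0.13 to 0.12), 6 red cell genes (-0.23 to 0.07) and 8 adrenal and fat genes (-0.41 to 1.47).

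**Figure D3:**
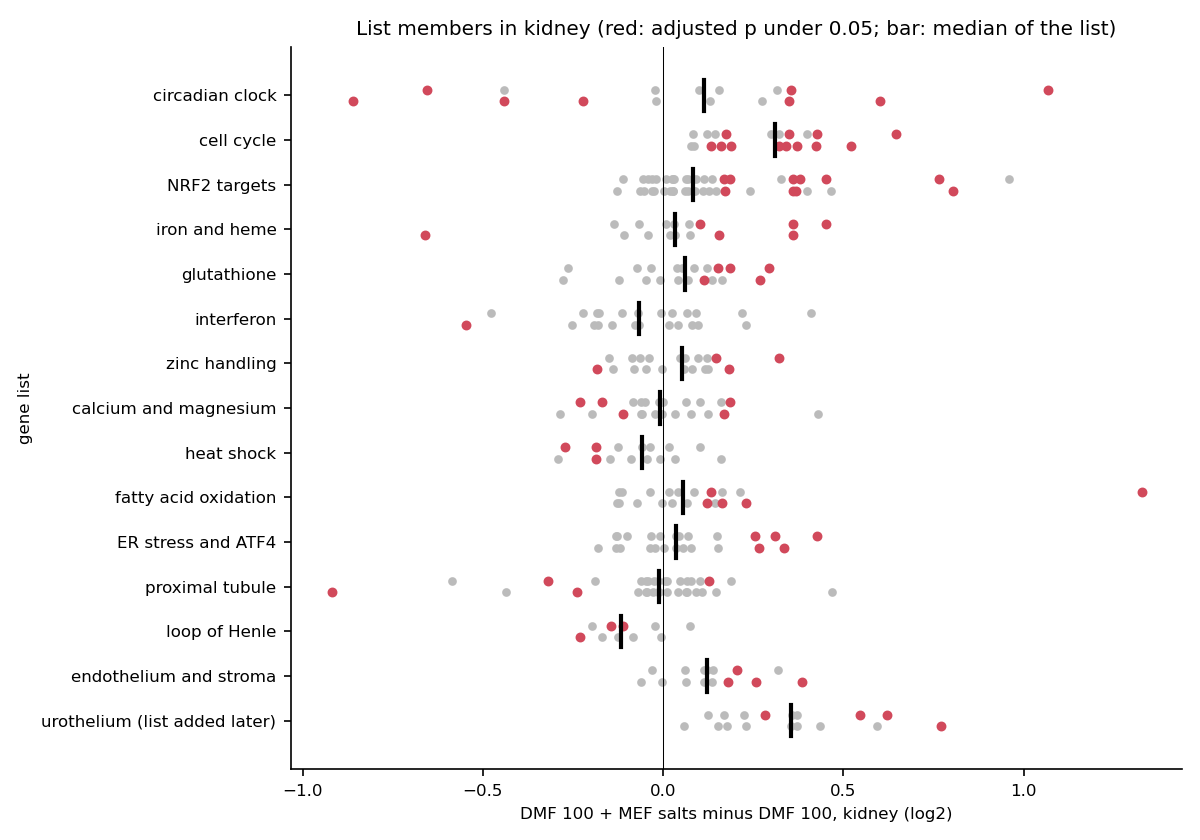
Combination minus DMF 100 in kidney for the tested members of 15 gene lists, on the log2 scale; each point is a gene, red points passed an adjusted p under 0.05, and the bar is the list's median. Clock genes lie on both sides of 0, all 20 cell cycle genes and all 17 urothelial genes lie above it, and the medians of the other 13 lists lie between -0.12 and 0.12.

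The difference made by MEF salts with DMF was set against that made without DMF, MEF salts minus vehicle, which uses none of the same arrays. MEF salts without DMF also gave 1537 calls (14.4%), 972 upward and 565 downward. The rises shared 307 genes, 31.8% of those with DMF and 31.6% of those without, and the falls shared 125, 21.8% and 22.1%. Across all genes, which are not independent replicates, the 2 differences had a Pearson r of 0.43 and a Spearman rho of 0.47. The Nav group against vehicle, also free of shared arrays, had r = 0.62 and rho = 0.65 with the combination minus DMF100, and 95.9% of the genes that rose were higher in Nav, against 59.1% of all genes. Nav against vehicle called 49.5% of all genes, 30.4% upward and 19.1% downward, and 76.2% of the genes that rose were called upward there. The hybridisation control signal ran from 11.75 to 11.91 in vehicle, from 11.69 to 12.01 with MEF salts and from 11.83 to 12.21 in Nav. In DMF100 it ran from 11.68 to 11.95 and in the combination from 11.71 to 12.02. What this likeness rests on, and whether that signal took part in it, was not tested.

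The direct test of a difference between the 2 settings called 127 genes (1.19%), 64 upward and 63 downward. Of the 1537 genes called with DMF 63 passed it (4.1%), and 53 of those 63 had the opposite sign without DMF. Both contrasts that picked these genes hold the combination minus DMF100, so the opposite sign is in part set by the choice. Among all 1537, 8 of the rises were called downward without DMF and 7 of the falls were called upward. NRF2 targets stood on the negative side: 10 of 46 passed, all with a smaller difference in the presence of DMF. Cbr3 had risen by 2.25 ± 0.14 with MEF salts alone and rose by 0.45 ± 0.13 on top of DMF, a difference between the 2 of -1.80 ± 0.19 (adjusted p = 2.63e-08). Mean Cbr3 was 6.03 in vehicle, 8.28 with MEF salts, 8.27 with DMF100 and 8.72 with both. Nqo1 (-0.74 ± 0.12, adjusted p = 0.000187), Gstm1 (-0.41 ± 0.05, adjusted p = 4.05e-07) and Gstp1 (-0.51 ± 0.06, adjusted p = 9.99e-07) also had a smaller difference with DMF than without, as did Pgd, Pir, Gsta4, Gclm, Abcc2 and Abcc4. Alas1 rose by 1.35 ± 0.13 without DMF and 0.45 ± 0.12 with it, which also differed (-0.90 ± 0.18, adjusted p = 0.00496).

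In some other genes that passed this test, DMF100 had the lowest or the highest mean. Klf11 differed by -0.46 ± 0.23 without DMF and 1.01 ± 0.22 with it, so the 2 differed by 1.47 ± 0.32 (adjusted p = 0.00904). Rbm3 differed by 0.13 ± 0.14 without DMF and -0.99 ± 0.13 with it (-1.11 ± 0.19, adjusted p = 0.000991). DMF100 had the lowest mean of Klf11 and the highest of Rbm3: mean Klf11 was 8.80 in vehicle, 8.34 with MEF salts, 7.67 with DMF100 and 8.68 with both, and mean Rbm3 was 6.58, 6.71, 7.41 and 6.43 in the same order. Dusp4 (1.17 ± 0.25, adjusted p = 0.00978), Edar (1.06 ± 0.28, adjusted p = 0.0469), and Mcm7 (0.35 ± 0.08, adjusted p = 0.0137) passed too, and DMF100 had the lowest of the 4 means in each. The 2 contrasts that picked these genes both hold the DMF100 arrays, so an extreme DMF100 mean is in part set by the choice. Slc10a2 and Bhmt fell in both settings, by 1.60 ± 0.18 and 0.76 ± 0.20 with MEF salts alone, and their test of a difference gave adjusted p of 0.167 and 0.917.

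**Figure D4:**
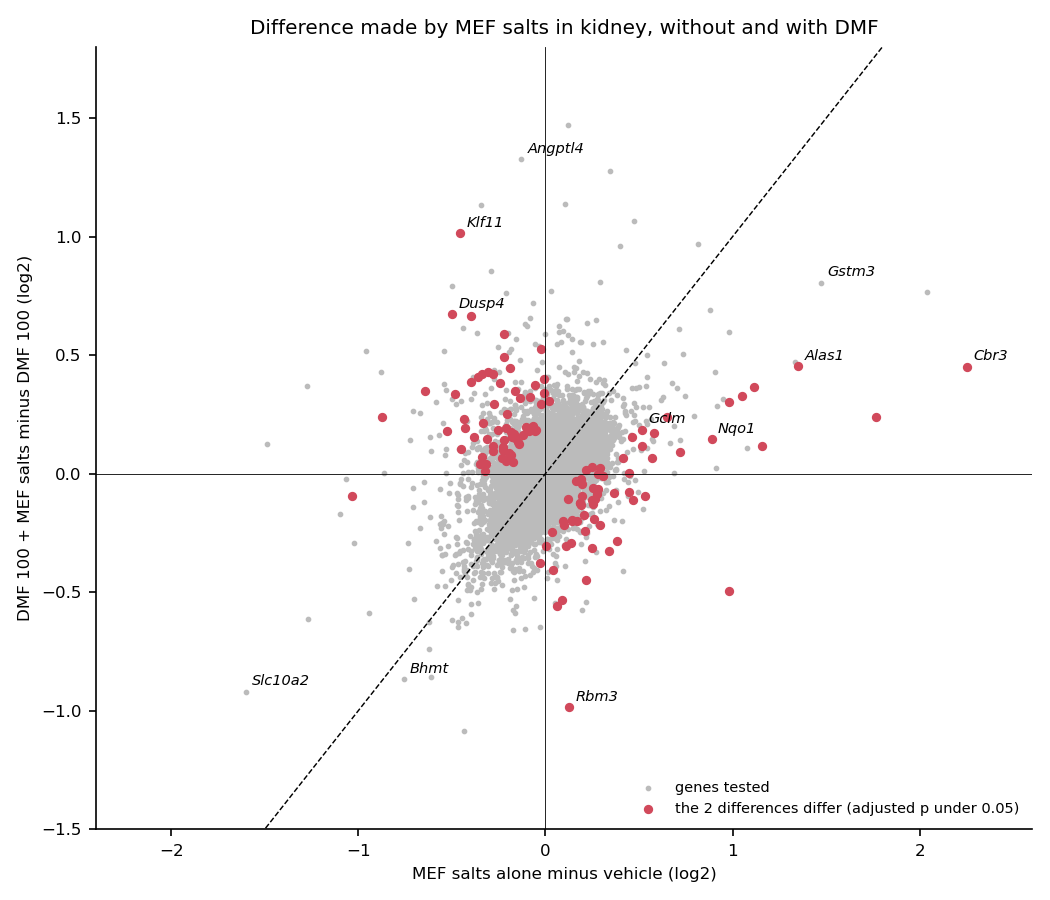
Difference made by MEF salts in kidney on the log2 scale, without DMF (x axis, MEF salts minus vehicle) and with DMF (y axis, combination minus DMF 100); each point is 1 of 10689 genes, red points are the 127 genes whose 2 differences differ, and the dashed line marks equality. Cbr3, Alas1 and Nqo1 lie far below the line on the right, Klf11 and Dusp4 lie above 0 on the y axis and below 0 on the x axis, and Rbm3 lies at -0.99 on the y axis and 0.13 on the x axis.

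The combination was also set against DMF179.2, which holds the same mass of drug as DMF alone. This comparison called 1179 genes (11%), 536 upward (5.01%) and 643 downward (6.02%), and 10 by at least 1.5-fold, but only 91 when the 2 groups were fitted alone. DMF179.2 against DMF100 called 143 (1.34%), 114 upward and 29 downward. These 2 comparisons and the main one share arrays, so values are given side by side. Slc10a2 averaged 9.09 ± 0.37 (SD, n = 8) in DMF100, 8.22 ± 0.51 (SD, n = 8) in DMF179.2 and 8.17 ± 0.33 (SD, n = 8) in the combination. The 2 high-mass groups differed in Slc10a2 by -0.05 ± 0.17 (adjusted p = 0.874). Hmox1 averaged 8.64, 8.95 and 9.0 in the same order, with a difference between the last 2 of 0.05 ± 0.07 (adjusted p = 0.659, 95% confidence interval -0.09 to 0.20), and Gstm3 averaged 4.97, 5.61 and 5.78 (0.16 ± 0.17, adjusted p = 0.563).

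Several clock genes, Rbm3 and Flvcr1 differed between the combination and DMF179.2. Npas2 was lower in the combination by 0.63 ± 0.17 (adjusted p = 0.0161), Bhlhe40 was higher by 0.33 ± 0.08 (adjusted p = 0.0123) and Tef by 0.32 ± 0.09 (adjusted p = 0.0224). Rbm3 was lower by 0.57 ± 0.13 (adjusted p = 0.00808) and Flvcr1 by 0.55 ± 0.11 (adjusted p = 0.00262). Ptprc was lower by 0.68 ± 0.15 (adjusted p = 0.00468). For Klf11 (0.38 ± 0.22, adjusted p = 0.242) and Dbp (0.57 ± 0.29, adjusted p = 0.188) the combination did not pass the test against DMF179.2.

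The same comparison in the other 6 tissues of the series gave fewer calls than the 1537 in kidney, with 6 to 8 arrays a group. The mesenteric lymph node gave 908 (8.6%), the inguinal node 19 (0.182%), the jejunum 12 (0.112%) and the brain 8 (0.0754%). Blood and spleen gave 0 by limma, with 585 and 736 genes at an unadjusted p under 0.05. The median standard error was 0.060 in kidney, 0.086 in the mesenteric node, 0.078 in the inguinal node and 0.094 in the jejunum. In brain, blood and spleen it was 0.056, 0.124 and 0.076, so the counts rest on unlike precision. Tissues were normalized apart, so only differences within a tissue are set side by side. The tissues carry the same mouse numbers, so a like difference in several tissues is not an independent repeat. Rbm3 had a negative difference in all 7 tissues and was called in 3: -0.84 ± 0.12 in the mesenteric node (adjusted p = 3.29e-05), -0.57 ± 0.12 in the jejunum (adjusted p = 0.0419) and in kidney. Klf11 rose in kidney, in the mesenteric node by 0.74 ± 0.14 (adjusted p = 0.0018) and in the inguinal node by 0.87 ± 0.17 (adjusted p = 0.0127). Flvcr1 fell in the mesenteric node (-0.42 ± 0.10, adjusted p = 0.0114), as did Cry1 (-0.34 ± 0.07, adjusted p = 0.00541) and Smc6 (-0.51 ± 0.15, adjusted p = 0.0263). Hmox1 (0.28 ± 0.09), Angptl4 (0.59 ± 0.20) and Depp1 (1.32 ± 0.35) rose there too, with adjusted p of 0.0444, 0.0492 and 0.0164.

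Bhlhe40 fell in the jejunum by 0.55 ± 0.11 (adjusted p = 0.0186) while it rose in kidney. Taking the difference between kidney and another tissue of the same mouse, 12 of 9441 genes (0.127%) were called for kidney against mesenteric node (6 combination and 8 DMF100 mice) and 124 of 9650 (1.28%) for kidney against jejunum (8 and 6 mice). Bhlhe40 differed between kidney and mesenteric node by 0.68 ± 0.11 (adjusted p = 0.00593) and between kidney and jejunum by 0.85 ± 0.15 (adjusted p = 0.00376). Bcl6 differed against the mesenteric node by 1.08 ± 0.20 (adjusted p = 0.0148), and Npas2 against the jejunum by -0.64 ± 0.16 (adjusted p = 0.0328), as did Klf11 by 0.82 ± 0.21 (adjusted p = 0.0378). Dbp had a positive difference in all 7 tissues and was called in kidney alone, and no test called it different between kidney and either tissue.

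**Figure D5:**
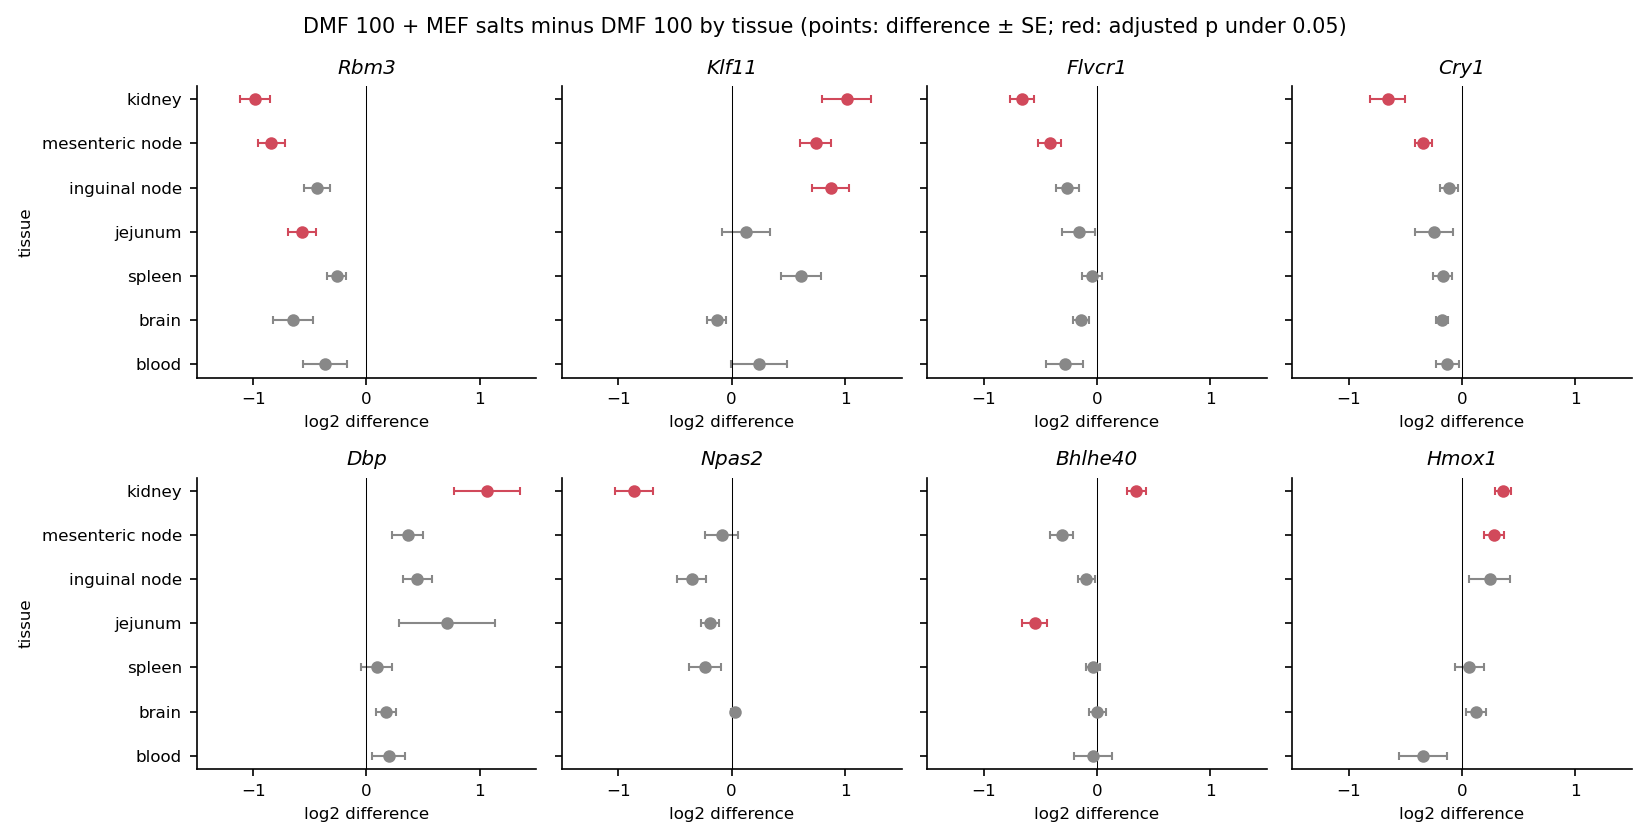
Combination minus DMF 100 for 8 genes in 7 tissues, on the log2 scale of each tissue; points are differences with their standard error and red marks an adjusted p under 0.05 (Npas2 was not tested in blood, nor Hmox1 in jejunum). Rbm3 lies below 0 in all 7 tissues, Klf11 is called in kidney and both nodes, and Bhlhe40 has opposite signs in kidney and jejunum.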

How the data were processed

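RNA of 7 tissues was hybridised to Affymetrix HT MG-430 PM arrays, 1 array a sample. The values used are the log2 expression values that the authors deposited, 45141 probe sets on 308 arrays. The submitters' processing notes name RMA, GCRMA, R 2.11.1 and limma 3.4.5; their order and the background method are not given in the sources used here. Between 20.02% and 21.57% of a kidney array's values sit at the lowest one, 2.14, which can compress differences of dim genes.

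Of the probe sets, 28898 have 1 gene symbol in the platform's name table, 551 have several and 15692 are unnamed here; 28689 of the first matched a RefSeq gene (GRCm38.p6). Each gene was read from its probe set of highest kidney mean. Of 17097 genes, 10689 passed the 50th percentile of the kidney values (5.10) in at least 7 arrays. limma 3.58.1 in R 4.3.3 was fitted to all 46 kidney arrays in 6 groups, as group means with no covariate, and contrasts were adjusted by Benjamini-Hochberg over the genes tested. Other tissues were fitted apart in the same way, and same-mouse differences between tissues by limma on the subtracted values. The fit was tested on simulated data. The number of arrays limits the precision, and p-values measure the spread between these arrays.

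Named genes are the 15 largest called differences each way, up to 4 called members of each of 33 gene lists by adjusted p, and 20 chosen genes, of which Mt2 was not matched; this gave 106 genes, 95 of them called. Other list members and genes outside this rule (such as Per3, Arntl, Clock, Alas1, Gadd45b, Plin5, Gstp1 and the urothelial genes) were named after their values were seen. The comparison, the genes and the lists were chosen with earlier results of these data known, and 2 further lists (urothelium and fasting) were written after the values were seen. Alternatives covered the filter, scaling, centring, variance model, array weights, choice of probe set, arrays in the fit, technical covariates and each array left out.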

Additional observations from a re-analysis of the deposited data

Results flagged for a closer look

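In 20 of 212 sets of 8 arrays, for the genes named, 1 array stood far from the others by Dixon's test; chance flags about 1 in 20 groups. Combination array 39 was such an array for Angptl4 at 7.54, Dbp at 8.04, Npas2 at 6.74, Pcdh18 at 6.45, Slc16a1 at 10.43 and Tie1 at 7.97. Combination array 35 stood high for Lcn2 at 10.18, Ugt2b5 at 7.46 and Gstm1 at 12.89. Combination array 37 stood apart for Cebpd at 7.06 and Acadvl at 11.54, array 32 for Gins2 at 6.10 and array 34 for Ier5 at 5.83. DMF100 array 12 stood apart for Slc39a5 at 8.0, Psma5 at 10.03, Psmb7 at 11.18 and Slc30a1 at 11.50, array 15 for Ugt2b5 at 5.73, array 10 for Herpud1 at 10.42 and array 11 for Sesn2 at 7.52.

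For 12 of the genes named, the difference made by MEF salts on top of DMF differed from that made without DMF, by limma's interaction contrast. The difference was larger with DMF for Klf11 by 1.47, Dusp4 by 1.17, Edar by 1.06, Rtp4 by 0.66 and Mcm7 by 0.35. It was smaller or more negative with DMF for Cbr3 (-1.80), Rbm3 (-1.11), Nqo1 (-0.74), Gstm1 (-0.41), Hmgcs1 (-0.33), Gclm (-0.33) and Slc48a1 (-0.31). Rtp4, an interferon-induced chaperone of receptors, averaged 7.03 in vehicle, 6.59 with MEF salts, 6.54 with DMF100 and 6.78 with the combination.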

How the results depend on the processing

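Of 95 called genes that were named, 55 kept their call in each of the 16 fits without 1 array, 44 in those of the 11 other settings that tested them, and 43 in every fit that tested them, 25 to 27 a gene. The 1537 calls (964 up, 573 down) became 2321 (979 down) with every probe set tested on its own, 719 (503 and 216) with the 2 groups fitted alone and 708 (524 and 184) with the hybridisation control covariate. Centring each array gave 594 upward calls and array weights 372 downward. Without 1 array, calls ran from 866 to 2172, upward from 572 to 1269 and downward from 290 to 903; combination arrays 35, 37, 38 and 39 and DMF100 arrays 10 and 12 moved a count by over 1.5 times.

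The 127 genes of the interaction became 600 (325 and 275) with array weights, and 95 were downward with averaged probe sets. Against DMF179.2, the 1179 calls became 634 (268 down) with array weights, 1799 (816 and 983) with every probe set, 91 (50 and 41) with the groups alone, 633 (325 and 308) with the hybridisation covariate and 527 (259 and 268) with the 3' minus 5' covariate, while centring gave 346 upward. Gsto1 turned to -0.052 with averaged probe sets, and Hdc, not called, to -0.18 with the hybridisation covariate and -0.030 without combination array 37, its range without 1 array reaching 0.33. The cause was not tested in any of these cases. No paired analysis was possible because the treatment groups of the kidney share no mouse numbers.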
